A study of Mus musculus with 32 samples.

Results

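HNF4A sites were mapped at 10 genes of the intestinal stem cell program and of the Notch and Wnt pathways, Lgr5, Olfm4, Ascl2, Sox9, Notch1, Axin2, Myc, Ccnd1, Hes1 and Atoh1. Peaks from 8 HNF4A ChIP-seq libraries that had 1 bp or more in common were joined into merged sites, and the sites that overlapped the body of one of these genes or the 20 kb on either side were kept. This gave 25 of 45552 merged sites, at 7 of the 10 genes. Hes1 had 8 sites, Notch1 6, Axin2 4, Olfm4, Myc and Ccnd1 2 each and Lgr5 1, whereas Ascl2, Sox9 and Atoh1 had none. The genes were chosen by name and not by their peaks, but with earlier results of these data known.

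The libraries came from jejunal intestinal epithelial cells (IECs) of male C57BL/6J mice aged 10 to 12 weeks, 1 mouse per library, collected 2 hours after a high-fat meal (HFM). In 4 libraries the mice were germ-free (GF+HFM), and in 4 they were ex-germ-free mice colonized with a conventional microbiota for 14 days (CV+HFM), so that both conditions share the meal and differ in colonization. ChIP-seq sequences the DNA recovered with an antibody against a protein, here Abcam ab41898 against HNF4A, and bound regions are called as peaks over input DNA. The cells were not sorted, and the preparation is mostly villus epithelium with some crypts and villus mesenchyme, so a site bound in a small share of the cells and a site bound weakly in many cannot be told apart.

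Wnt signalling keeps stem and progenitor cells of the intestinal crypt dividing, through beta-catenin and TCF factors on target genes such as Axin2, Myc, Ccnd1, Sox9 and Ascl2. Notch signalling between neighbouring crypt cells releases a Notch fragment that acts with RBPJ to switch on Hes1, a repressor that keeps Atoh1 off and turns cells from secretory toward absorptive fates. HNF4A is a nuclear receptor that drives genes of the absorptive enterocyte on the villus.

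Of the 8 sites with a peak in 6 or 7 libraries, the reference sequence is shown for 5, at Lgr5, Olfm4, Notch1 and Hes1. Not shown are the site in the last exon of Notch1 and those 14.2 and 9.4 kb upstream of Hes1. Each sequence shown is the 200 bp window centred on its site, on the plus strand of the NCBIM37 (mm9) assembly. It is in lower case with matches to the searched motifs in capitals. The windows lie in Lgr5 intron 2 at chr10:114942096-114942295, in Olfm4 intron 2 at chr14:80410364-80410563, downstream of Notch1 at chr2:26301562-26301761, upstream of Hes1 at chr16:30053045-30053244 and just before the Hes1 start at chr16:30065184-30065383.
Lgr5 intron 2: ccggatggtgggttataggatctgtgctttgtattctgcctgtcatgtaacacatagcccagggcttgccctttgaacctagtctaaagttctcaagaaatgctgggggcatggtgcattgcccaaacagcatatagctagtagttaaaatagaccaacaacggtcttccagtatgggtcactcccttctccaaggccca
Olfm4 intron 2: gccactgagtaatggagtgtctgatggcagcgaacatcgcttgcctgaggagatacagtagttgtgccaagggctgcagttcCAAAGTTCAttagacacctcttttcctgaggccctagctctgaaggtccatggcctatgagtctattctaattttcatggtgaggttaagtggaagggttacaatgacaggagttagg
Downstream of Notch1: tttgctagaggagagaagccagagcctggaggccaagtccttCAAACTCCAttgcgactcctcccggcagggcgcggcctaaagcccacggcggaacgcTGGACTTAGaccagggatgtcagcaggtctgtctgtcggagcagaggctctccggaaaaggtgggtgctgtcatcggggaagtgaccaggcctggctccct
Upstream of Hes1: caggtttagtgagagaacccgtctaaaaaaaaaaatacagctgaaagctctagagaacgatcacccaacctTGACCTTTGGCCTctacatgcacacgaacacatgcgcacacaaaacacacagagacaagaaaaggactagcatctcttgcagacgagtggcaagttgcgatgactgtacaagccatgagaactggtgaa
Start of Hes1: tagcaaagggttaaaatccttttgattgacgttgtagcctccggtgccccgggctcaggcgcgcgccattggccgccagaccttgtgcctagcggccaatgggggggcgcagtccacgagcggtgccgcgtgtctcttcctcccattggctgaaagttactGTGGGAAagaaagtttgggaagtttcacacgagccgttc

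Motifs were searched on both strands of the 200 bp window at every merged site and of windows moved by 2000 bp. The HNF4-specific motif CAAAGTCCA was in 0 of the 25 windows, against 5.64% of all 45325 windows and 0.278% of the moved ones. With 1 mismatch allowed it was in 6 of 25, against 31.9% of all windows and 6.29% of the moved ones. The capitals in the Olfm4 window and both stretches of capitals in the Notch1 window are such matches, and the second in the Notch1 window lies on the minus strand. The other windows with one were at 2 Axin2 sites, at the site 12.9 kb upstream of Hes1 and at the site 2.5 kb downstream of the Notch1 start. The DR1 motif, the nuclear receptor half-site AGGTCA repeated with 1 base between the copies, was searched with at most 2 mismatches. It was in 1 of 25 windows, 12.2 kb upstream of Hes1, where it had 1 mismatch and lay on the minus strand, against 14% of all windows. This repeat overlaps the HNF4-specific motif in part, so the counts are not independent. The TCF/LEF motif ATCAAAG, to which the factors of the Wnt pathway bind, was in 0 of 25 windows and in 6.01% of all, against 3.36% of the moved windows. The RBPJ motif GTGGGAA, to which the partner of the Notch fragment binds, was in 1 of 25 windows, the one at the Hes1 start, from 30065345 to 30065351 on the plus strand, and in 3.83% of all and 3.96% of the moved windows. The Lgr5 window held none of these motifs. Neither did the windows in the last exon of Notch1 and 14.2 and 9.4 kb upstream of Hes1, which are not printed. The printed windows thus hold matches more often than the well supported sites as a whole. A match describes the letters and not a bound factor.

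The sites were then counted by the number of libraries that called them. A library calls a site here when its list has any peak in it, which is a yes or no against the authors' threshold. Of the 25 sites, 9 were called in 1 library (36%, against 21.6% of all merged sites), 5 in 2, 3 in 3, 0 in 4 or 5, 6 in 6 and 2 in 7. For 2 to 7 libraries no share of all merged sites was taken, so those counts only describe these sites. No site was called in all 8 libraries, which 7.56% of all merged sites were. All 4 GF+HFM libraries called 8 of the sites (32%, against 50.6% of all), namely 1 at Lgr5, 1 at Olfm4, 2 at Notch1 and 4 at Hes1. As the lists hold no peak height, the width of a library's widest peak in a site was ranked within its own list, with 100 for the widest peak of the list. A percentile is relative to its own list, and the lists of the conditions differ in length, so that the same peak can rank differently in them. The percentiles are therefore given side by side as a description of each list, and no difference in binding is read from them. The mean of this percentile over the GF+HFM libraries with a peak had a median of 30.0 over the 24 sites with a GF+HFM peak, against 38.7 over all sites. Over the 8 sites called in all 4 GF+HFM libraries it was 57.2, against 62.0.

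**Figure D1:**
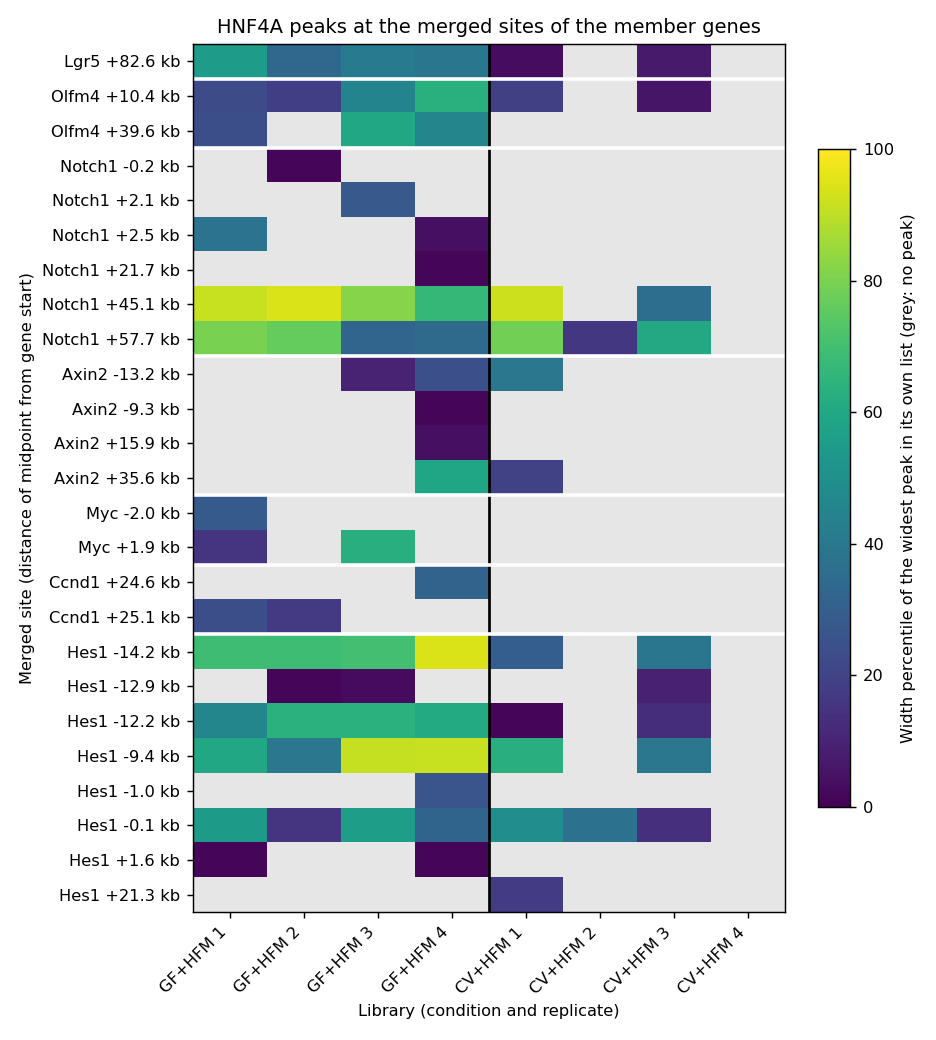
Calls and peak widths at the 25 sites (vertical axis, named by gene and distance of the midpoint from the gene start in kb) in the 4 GF+HFM and 4 CV+HFM libraries (horizontal axis, split by the black line). Colour gives the width percentile of the library's widest peak in the site within its own list and grey means no peak, and CV+HFM replicate 4 is grey at all 25 sites.

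Among the genes that mark stem cells of the crypt base, Lgr5 and Olfm4 had HNF4A sites in their second introns and Ascl2 had none. Lgr5, the R-spondin receptor of the cycling stem cell (ENSMUSG00000020140, minus strand, chr10:114887367-115024836), had its single site at chr10:114942011-114942412, 82.6 kb into the gene. Its width percentile was 55.4, 33.8, 41.2 and 39.2 in GF+HFM replicates 1 to 4, and 3.22 and 7.03 in CV+HFM replicates 1 and 3. CV+HFM replicates 2 and 4 had no peak, and the ranks of the other 2 come from lists of 29345 and 21033 peaks, against 31061 or more in GF+HFM. The call itself, 4 libraries against 2, did not differ beyond what so few libraries can show (Fisher's exact test, two-sided, p = 0.429, adjusted p = 0.949 over all 45552 sites).

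Olfm4, a secreted glycoprotein of crypt stem cells (ENSMUSG00000022026, plus strand, chr14:80400109-80422667), had a site at chr14:80410276-80410832, 10.4 kb downstream of its start. The width percentile there was 23.2, 18.6, 45.1 and 63.6 in the GF+HFM libraries, and 18.8 and 5.52 in CV+HFM replicates 1 and 3, so that CV+HFM replicate 1 overlapped the GF+HFM range. Its second site, at chr14:80439506-80439986, lay 16839 bp beyond the gene. It was called in GF+HFM replicates 1, 3 and 4 at percentiles of 23.9, 60.0 and 45.5 and in no CV+HFM library (Fisher's exact test, two-sided, p = 0.143, adjusted p = 0.824). Ascl2, a Wnt-driven transcription factor of the stem cell (chr7:150152727-150155169, minus strand), had no site in its window. The nearest one, at chr7:150197360-150197802, was 42.2 kb upstream, 6630 bp from the start of Tspan32, with a call from all 4 GF+HFM libraries and 3 of the CV+HFM ones.

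At Axin2, Myc and Ccnd1, which Wnt signalling switches on, no site within 20 kb was called in more than 3 libraries. Axin2, a negative feedback regulator of beta-catenin (ENSMUSG00000000142, plus strand, chr11:108781663-108812097), had 4 sites, and GF+HFM replicate 4 called all 4 of them. GF+HFM replicate 3 called 1, CV+HFM replicate 1 called 2 and the other 5 libraries called none. The site nearest the start, at chr11:108772202-108772424, lay 9.3 kb upstream and was called in GF+HFM replicate 4 alone, at percentile 1.22. The site with the highest mean GF+HFM percentile, at chr11:108816955-108817501, lay 4858 bp beyond the gene. It was called in GF+HFM replicate 4 at percentile 58.7 and in CV+HFM replicate 1 at 19.5. The site 13.2 kb upstream, at chr11:108768253-108768625, was called in GF+HFM replicates 3 and 4 and in CV+HFM replicate 1, at percentiles of 9.99, 24.6 and 39.6. The last site, at chr11:108797440-108797670 in intron 3, was called in GF+HFM replicate 4 alone, at 4.19. Without that 1 library, 2 of the 4 Axin2 sites were left.

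Myc, the growth-promoting transcription factor (ENSMUSG00000022346, plus strand, chr15:61816946-61821929), had a site across the border of intron 1 and exon 2, at chr15:61818630-61819113, called in GF+HFM replicates 1 and 3 at percentiles of 15.3 and 63.1. A second site 2.0 kb upstream of the start, at chr15:61814809-61815045, was called in GF+HFM replicate 1 alone, at 28.3. Ccnd1, cyclin D1 of the G1 phase (ENSMUSG00000070348, minus strand, chr7:152115836-152125774), had 2 sites, both beyond the end of the gene and close to the start of Oraov1. The one at chr7:152101023-152101384 was 118 bp from that start and was called in GF+HFM replicate 4 alone, at percentile 31.7. The one at chr7:152100578-152100800 was 396 bp from it and was called in GF+HFM replicates 1 and 2 at 23.9 and 17.1. Their place in the Ccnd1 window does not tie these 2 sites to Ccnd1. No CV+HFM library called a site at Myc or Ccnd1, and 35.6% of all merged sites were called in GF+HFM libraries only. Sox9, a transcription factor of crypt progenitors and Paneth cells (chr11:112643538-112649074, plus strand), had no site in its window. The nearest, at chr11:112671874-112672277, lay 22.8 kb downstream, just past the 20 kb limit, with a call from all 4 GF+HFM libraries and 2 of the CV+HFM ones, and with Sox9 as the nearest protein-coding start.

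The receptor gene Notch1 (ENSMUSG00000026923, minus strand, chr2:26313423-26372183) had its well supported sites at its far end. Distances are from 26359342, the start of the transcript with the longest coding sequence. The site at chr2:26313898-26314628, in exon 34, the last exon, had the highest mean GF+HFM width percentile of all 25. It did not rank highest in each single list. Its width percentile was 91.6, 94.4, 81.7 and 66.5 in the GF+HFM libraries, 92.3 in CV+HFM replicate 1 and 36.1 in CV+HFM replicate 3. CV+HFM replicate 1 was thus inside the GF+HFM range, replicate 3 below it, and replicates 2 and 4 had no peak. This stretch also overlaps the gene record 0610009E02Rik. The site at chr2:26301317-26301893 lay 11530 bp beyond Notch1. It overlaps the gene record 0610009E02Rik, with its midpoint 143 bp from the start of that gene and 871 bp from the start of Sec16a, so that its place in the Notch1 window does not tie it to Notch1. It was called in 7 libraries, at 79.8, 76.4, 32.5 and 34.4 in GF+HFM and at 78.7, 16.1 and 60.3 in CV+HFM replicates 1 to 3 (Fisher's exact test, two-sided, p = 1). The other 4 Notch1 sites were each called in 1 or 2 GF+HFM libraries and never in CV+HFM. The one nearest the start, at chr2:26359423-26359587, was called in GF+HFM replicate 2 alone, at percentile 1.79. The site in intron 4 was called in GF+HFM replicate 4 alone, and of the 2 sites in intron 2 one was called in GF+HFM replicate 3 and the other in replicates 1 and 4.

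Hes1, the transcriptional repressor switched on by Notch (ENSMUSG00000022528, plus strand, chr16:30064470-30067882), had the most sites of the 10 genes, with 1 over its start and a group of 4 between 9.4 and 14.2 kb upstream. Distances are from 30065426, the start of the transcript with the longest coding sequence. The site at chr16:30065074-30065556 covered the start and part of exon 1. Its width percentile was 54.5, 15.5, 56.0 and 32.3 in the GF+HFM libraries and 49.1, 37.4 and 14 in CV+HFM replicates 1 to 3, so that the conditions overlapped, and CV+HFM replicate 4 had no peak. The RBPJ motif printed in capitals lies within this site.

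In the upstream group, the site 14.2 kb from the start, at chr16:30050737-30051803, had percentiles of 69.1, 68.9, 69.98 and 94.2 in GF+HFM. In CV+HFM replicates 1 and 3 it had 29.9 and 39.4. The site 12.2 kb upstream, at chr16:30052956-30053493, where the nuclear receptor repeat lies, had 46.0, 63.9, 63.7 and 61.0 in GF+HFM and 1.52 and 13.1 in CV+HFM replicates 1 and 3. At both, CV+HFM replicates 2 and 4 had no peak, and the percentiles come from lists of unequal length. The site 9.4 kb upstream, at chr16:30055534-30056519, had 59.5, 39.7, 91.4 and 91.6 in GF+HFM and 62.6 and 39.7 in CV+HFM replicates 1 and 3, so that the conditions overlapped. The site between them, at chr16:30052412-30052639, was called in GF+HFM replicates 2 and 3 and CV+HFM replicate 3, each at a percentile under 10. Of the other sites, the one 1.0 kb upstream was called in GF+HFM replicate 4 alone and the one across intron 3 and exon 4 in GF+HFM replicates 1 and 4. The site at chr16:30086577-30086792, 18695 bp beyond the gene, was called in CV+HFM replicate 1 alone. It was the only one of the 25 that CV+HFM libraries called more often than GF+HFM libraries did, as 2.86% of all merged sites were. Atoh1, the transcription factor of secretory fate that Hes1 represses (chr6:64679140-64681227, plus strand), had no site. The nearest, at chr6:64704495-64704883, lay 23.3 kb downstream with a call from 3 GF+HFM libraries and 1 CV+HFM library.

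**Figure D2:**
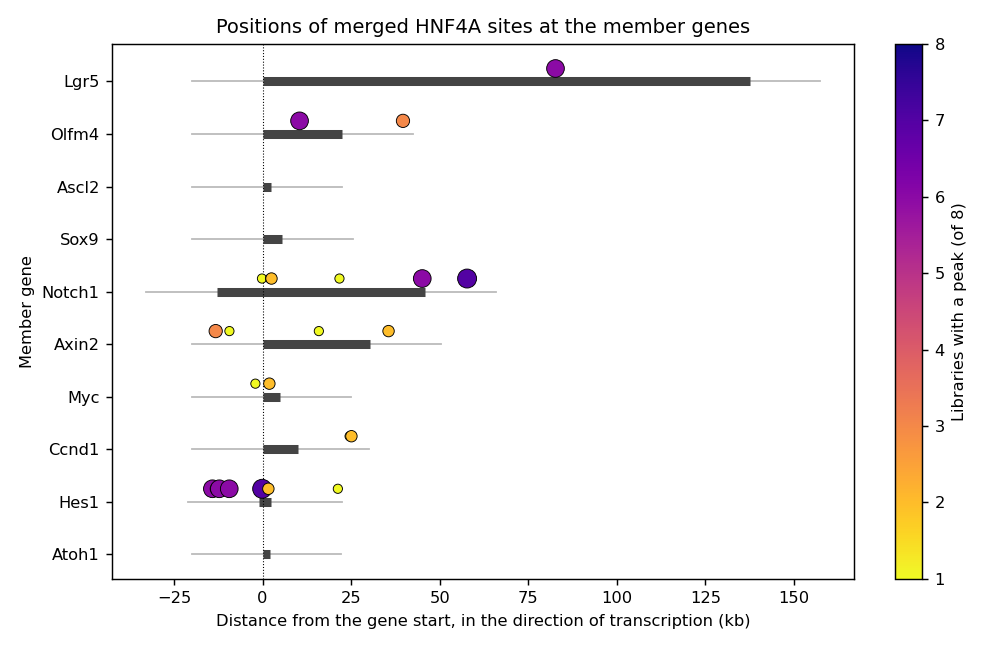
Distance of each site's midpoint from the start of its gene in kb (horizontal axis) for the 10 genes (vertical axis), with the gene body as a dark bar and the searched 20 kb on either side as a thin line. Colour and size of a point give the number of libraries with a peak, and the sites called in 6 or 7 libraries are 1 at Lgr5, 1 at Olfm4, 2 beyond 45 kb at Notch1 and 4 at Hes1.

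By position, 10 of the 25 sites overlapped the body of the coding transcript of their gene or its start, 9 lay upstream and 6 downstream. The midpoints of 2 lay within 1 kb of the start. The nearest protein-coding start was that of the gene itself for 20 of the 25. The exceptions were both sites at Ccnd1, the Lgr5 site, and the 2 well supported Notch1 sites, for which it was Sec16a.

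To compare the conditions, the sites called in each library were counted. GF+HFM replicates 1 to 4 called 14, 11, 13 and 18 of the 25 sites, and CV+HFM replicates 1 to 4 called 11, 2, 9 and 0. The GF+HFM mean was 14 ± 2.94 (SD, n = 4), the CV+HFM mean was 5.5 ± 5.32 (SD, n = 4), and CV+HFM replicate 1 equalled GF+HFM replicate 2. Of the 25 sites, 23 had more calls from GF+HFM than from CV+HFM libraries, where 86.5% of all merged sites were, and 13 in GF+HFM libraries only, where 35.6% were. The first of these shares is near that of all sites, so it says little about these genes. The second is of sites that at most 3 libraries called, and the part of list length in it was not tested. None of the 25 sites had calls from 4 GF+HFM libraries and 0 from CV+HFM, where 2.79% of all sites were. At no site of the genome did the call pass Fisher's exact test after Benjamini-Hochberg adjustment (0 of 45552 sites, 0%), and 4 libraries against 4 cannot go below p = 0.0286, a value that the 1269 sites called in 4 against 0 reach.

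In CV+HFM the calls had the same order as the lengths of the lists. These held 31061 to 36846 peaks for GF+HFM mice and 4533 to 29345 for CV+HFM mice. In GF+HFM replicates 1 to 4, 56%, 44%, 52% and 72% of the 25 sites were called, against 76.4%, 64.0%, 72.1% and 74.0% of all merged sites. In CV+HFM replicates 1 to 4, the shares were 44%, 8%, 36% and 0%, against 60.8%, 19.2%, 43.3% and 8.97%. In each of the 8 libraries the share at these genes was below that of all sites. Of the 8 sites that all 4 GF+HFM libraries called, CV+HFM replicates 1 and 3 called 8 each, replicate 2 called 2 and replicate 4 called 0, against 91.6%, 78.0%, 37.1% and 17.0% of all such sites in replicates 1, 3, 2 and 4. The 2 that CV+HFM replicate 2 called were the site over the Hes1 start and the site near Sec16a. These did not have the highest mean GF+HFM width percentiles of the 8. Peak names carry an animal identifier, which closes with an A for 2 of the GF+HFM and 3 of the CV+HFM mice. Among these, 12.5 sites were called on average in GF+HFM and 7.33 in CV+HFM, and among the others 15.5 in the 2 GF+HFM libraries and 0 in the 1 CV+HFM library. What the letter stands for is not given in the sources used here, and the part of list length in these differences was not tested.

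**Figure D3:**
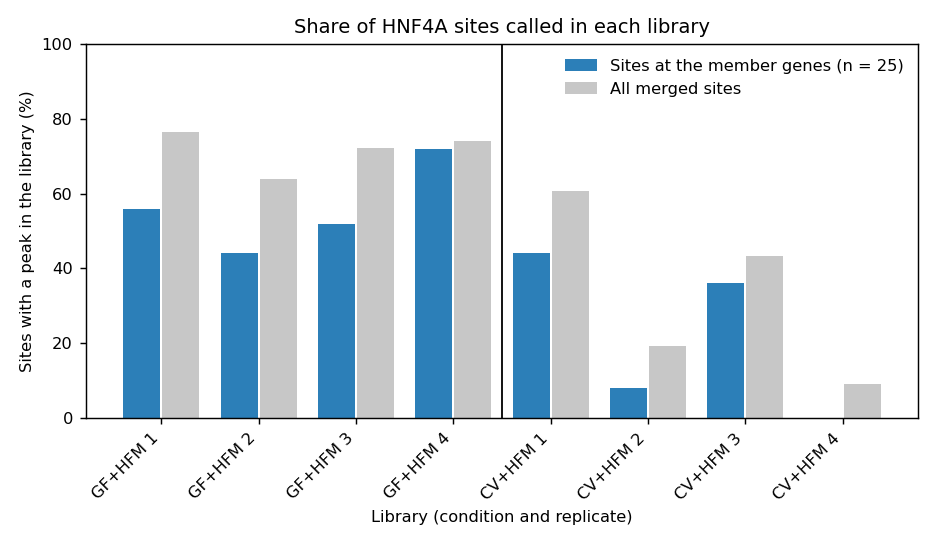
Percent of sites with a peak in each library (vertical axis) for the 25 sites at the 10 genes (blue) and for all 45552 merged sites (grey), with 1 pair of bars per library and the conditions split by the black line. The blue bar is below the grey one in each of the 8 libraries, and in CV+HFM replicate 4 it is at 0%.

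The number of sites called in a gene's window was then compared between conditions with an exact permutation test over the 70 relabellings of the libraries, for each of the 14479 protein-coding genes with a site. Fewer sites in CV+HFM at an unadjusted p of 0.05 or less were found for 12.2% of these genes and more sites in CV+HFM for 0 genes, and after adjustment 0 genes passed. Of the 7 genes with sites, 1 passed before adjustment, a share near that of all genes. The gene was Notch1, with 3, 3, 3 and 4 sites called in GF+HFM and 2, 1, 2 and 0 in CV+HFM, a mean lower by 2 (two-sided exact permutation p = 0.0286, which is the smallest it can give, adjusted p = 0.234). It had fewer sites in each CV+HFM library than in each GF+HFM library. That separation rests on the Notch1 sites called in only 1 or 2 GF+HFM libraries. CV+HFM replicates 1 and 3 called both well supported sites, as every GF+HFM library did, and 1 of these is the site near Sec16a. With GF+HFM replicate 4 left out, 0 of the 10 genes passed before adjustment. Hes1 had 5, 5, 5 and 6 sites in GF+HFM and 5, 1, 5 and 0 in CV+HFM, so that the conditions overlapped (exact permutation test, two-sided, p = 0.286, adjusted p = 0.459). Olfm4 had 2, 1, 2 and 2 in GF+HFM and 1, 0, 1 and 0 in CV+HFM (exact permutation test, two-sided, p = 0.0857, adjusted p = 0.286). For Lgr5, Axin2, Myc and Ccnd1 the unadjusted p of this exact test lay between 0.143 and 0.714.

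Relative width was tested with limma, after each library's width ranks were turned into normal scores, over the 3445 sites called in all 8 libraries. The test called 4 sites (0.116%), all lower in CV+HFM, and 398 had an unadjusted p under 0.05. The count was 21 with CV+HFM replicate 1 left out, 14 with GF+HFM replicate 2, 5 with CV+HFM replicate 4 and 0 with any of the other 5 libraries. No site at the 10 genes was called in all 8 libraries, so none entered this test. Without CV+HFM replicate 4, the sites over the Hes1 start and near Sec16a entered among 8375, of which 5 passed (0.0597%). Their normal scores were higher in CV+HFM by 0.50 (SE 0.48) and 0.47 (SE 0.49), and neither passed (limma, Benjamini-Hochberg adjusted p = 0.761 and 0.768). Ranked among all peaks of a list instead, the mean percentile was lower in CV+HFM at both, 33.5 against 39.6 at the Hes1 start and 51.7 against 55.8 near Sec16a, so the direction turned with the peaks ranked.

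The number of sites per gene was set beside that of all genes, as a description. Of 22102 protein-coding genes, 65.5% had at least 1 site in the same window, and the median was 2 sites, as it was over the 10 genes. The 8 sites of Hes1 put it at percentile 91.5 of these genes, and 9.72% of them had at least 8. Per length of window, the 10 genes had a median of 3.60 sites per 100 kb, against 2.21 over all protein-coding genes, and Hes1 had 18.4. Notch1 was at percentile 84.8 by number of sites, Axin2 at 73.4, Olfm4, Myc and Ccnd1 at 55.4 and Lgr5 at 42.1. Lgr5, with the longest window, had 0.563 sites per 100 kb.

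Further genes of these pathways were taken from lists of known members. Of 22 other Notch pathway genes, 19 had a site, with a median of 2. Numb, which restrains Notch, had 15, the ligand gene Dll1 had 10 and the receptor gene Notch4 had 7, as did Nrarp, a feedback inhibitor. Dtx1, Hey1 and Hey2 had none. Of 22 Wnt pathway genes, 21 had a site, with a median of 5.5. Tcf7l2, the main TCF factor of the intestine, had 27, the Wnt co-receptor gene Lrp5 had 18, and Rnf43, which removes Wnt receptors from the cell surface, had 15. Nkd1 had none. Of 18 further genes of stem cells and proliferation, 13 had a site, with a median of 2, and Lrig1 had 15, Hopx 9 and Prom1 9, whereas Ccnb1, Ccnd2, Msi1, Mycn and Tnfrsf19 had none. Of the 5 genes of secretory fate found among the protein-coding genes used, 3 had a site, Dll1 with 10, Klf4 with 3 and Spdef with 2. Insm1 and Neurog3 had none. Dll1 stands in both lists. Before adjustment, 1 of 19 Notch pathway genes with a site and 2 of 21 Wnt pathway genes had fewer sites in CV+HFM. In the stem cell and proliferation list it was 0 of 13, and in the secretory list 1 of 3. The Notch pathway gene and the secretory gene were both Dll1, so 1 gene is counted in both lists. No gene of these lists had more sites in CV+HFM, and 0 passed after adjustment. Over all protein-coding genes with a site the share with fewer was 12.2%.

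As a check of the tissue, 16 of 16 enterocyte genes had a site, with a median of 10, led by Hnf4a with 20, Vil1 with 19 and Apoa1 with 14. Before adjustment 6 of these 16 had fewer sites in CV+HFM, against 12.2% of all protein-coding genes with a site, and 0 passed after it. Of 12 genes of mesenchyme and immune cells, 8 had a site, with a median of 1.5, and Acta2, Des and Pecam1 had the most, with 3 each. Before adjustment 0 of these genes had fewer sites in CV+HFM. The 2 lists differ in sites per gene, and the part of this in the counts was not tested. Peaks do not measure expression, so these counts describe where HNF4A was called and not how much of each cell type a library held.

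**Figure D4:**
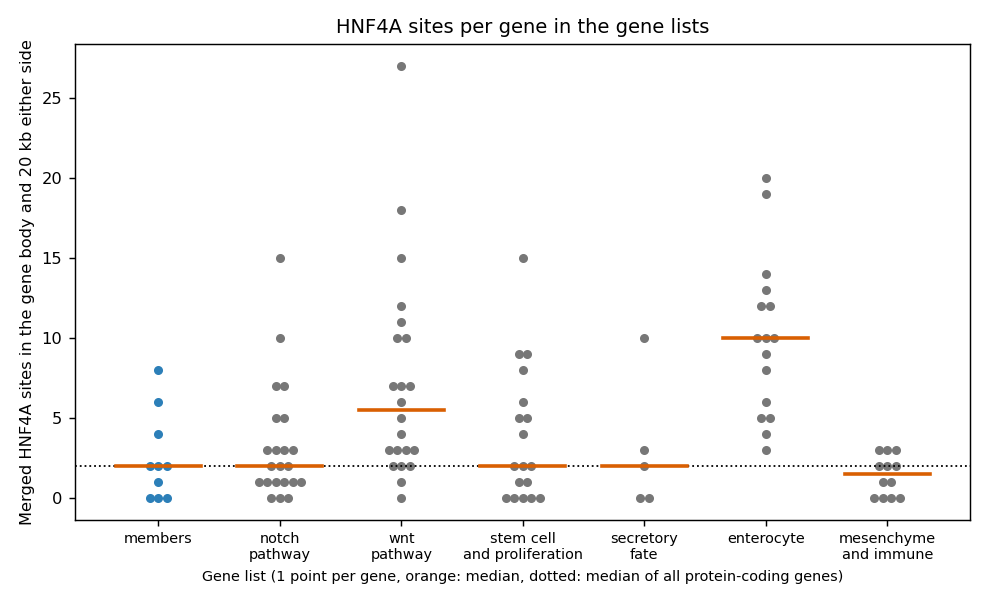
Merged HNF4A sites in the gene body and 20 kb either side (vertical axis) for each gene of the 10 described genes (blue) and of the other lists (grey), with 1 point per gene, the median of a list in orange and the median of all protein-coding genes, 2, as a dotted line. The 16 enterocyte genes had 3 to 20 sites, the 10 genes 0 to 8.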

How the data were processed

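The HNF4A ChIP-seq peaks of 4 GF+HFM mice and 4 CV+HFM mice were used, grouped by their labels. The RNA-seq, H3K27ac and input libraries were not used here. The authors aligned the reads by Bowtie2 (mm9) and then ran MACS2 2.1.1.20160309 on each mouse against input DNA, without pooling replicates. The deposited lists hold positions in bp and a peak name, with no count, score or height, so reads per library are unknown and no counting error can be given.

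Peaks were merged at 1 bp of overlap with Python 3.11.15, numpy 2.4.6 and pandas 2.3.3. Genes follow GENCODE M1, and distances run from the start of the transcript with the longest coding sequence to the midpoint of a site. The last peak of each of 22 chromosomes lay within its NCBIM37 length. The 227 sites without a reference window were left out of the motif search. Fisher's exact test and exact permutation tests (scipy 1.17.1) were two-sided and adjusted by Benjamini-Hochberg over all sites or genes. Width ranks were tested with limma 3.58.1 in R 4.3.3, with a threshold of 0.05, in place of the read counts that the study tested. The tests were checked on simulated data. Figures were drawn with matplotlib 3.10.9.

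The 10 genes, the gene lists and the tests were chosen with earlier results of these data known. For each gene, the site nearest the start, the site with the highest mean GF+HFM width percentile and any site called in 4 libraries of one condition and 0 of the other are given in full, the rest by position and calls. Of each list the 3 genes with the most sites are named. Gfi1, which was not found among the protein-coding genes used, was left out. Alternatives were other windows, the nearest gene, 50% of a site covered, a minimum peak width of 300 bp, the widest peaks of each list, summed widths, a replicate block and each library left out.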

Additional observations from a re-analysis of the deposited data

Results flagged for a closer look

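In 7 of 30 groups of 4 libraries tested, 1 library stood far from the other 3. How often chance does this in such groups was not tested, and counts of few sites with 3 equal values do it readily. GF+HFM replicate 4 called 4 sites at Notch1 against 3 in each of the others, and 6 at Hes1 against 5. GF+HFM replicate 3 called 0 sites at Ccnd1 against 1, and GF+HFM replicate 2 called 1 at Olfm4 against 2. CV+HFM replicate 1 called 2 sites at Axin2 against 0 in the other CV+HFM libraries. By width percentile, GF+HFM replicate 4 was at 94.2 at the site 14.2 kb upstream of Hes1, where the others were at 68.9 to 69.98, and GF+HFM replicate 1 was at 46.0 at the site 12.2 kb upstream, where the others were at 61.0 to 63.9.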

How the results depend on the processing

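The 25 sites became 12 in gene bodies alone, 16 with 10 kb either side, 46 with 50 kb, 40 by nearest gene, 15 with peaks at least 300 bp wide and 3 with the widest 4533 peaks of each list, which left 2 genes with a site. Genes with a site numbered 6 in gene bodies and with 10 kb, where Ccnd1 had 0, 8 by nearest gene and 10 with 50 kb, where Sox9 had 3 and Ascl2 and Atoh1 1 each. By nearest gene Atoh1 had 1 and Myc and Ccnd1 8 each, against 0, 2 and 2. Those called in more GF+HFM libraries numbered 12, 15, 42, 38, 15 and 3, against 23. The mean per library, lower by 8.5 in CV+HFM (-8.5), became -4.5 in gene bodies, -5.5 with 10 kb, -17.25 with 50 kb, -16.75 by nearest gene and -1 with the widest peaks. With at least 50% of a site to be covered, 2 sites at these genes and 2226 of all were called in 4 against 0 libraries. With peaks of 300 bp it was 1 at these genes, and with the widest peaks 55 of all. Genes with fewer CV+HFM sites at the unadjusted threshold numbered 823 in gene bodies, 2957 with 50 kb and 58 with the widest peaks, against 1768, of which 2 were among the 10 genes with 50 kb and 0 with peaks of 300 bp or the widest peaks, against 1.

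With 1 library left out, the sites numbered 21 to 25, at 7 genes throughout, those called in more GF+HFM libraries 16 to 24, and the mean difference lay between -10.3 and -6.67. Sites called in every GF+HFM and no CV+HFM library numbered 0 to 1 at these genes, with 1 without GF+HFM replicate 2, and 1271 to 4871 in all, namely 4871 once CV+HFM replicate 1 was left out, 2493 for GF+HFM replicate 2 and 1914 for CV+HFM replicate 3. Genes with fewer sites numbered 1011 to 4798, the lowest when GF+HFM replicate 1 was left out and the highest when it was CV+HFM replicate 1. Of the 10 genes, 0 to 2 had fewer, with 0 without GF+HFM replicate 4 and 2 without GF+HFM replicate 2 or 3. The limma count ranged from 0 to 21, and where it was 0, 254 to 471 sites had an unadjusted p under 0.05. The cause was not tested.

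With the replicate number as a block, limma called 4 sites, as it did without it. Deviations of same-numbered libraries correlated at 0.05, 0.07, -0.08 and 0.14 over 3445 sites, and only replicate 4 correlated best with its own number. No pairing was seen in these width ranks, which cannot show whether same-numbered mice were handled together.

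Calls rest on the authors' threshold and on list lengths from 4533 to 36846 peaks. A missing call does not show that HNF4A was absent, and the depth behind each list is unknown.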
